A study of Mus musculus with 16 samples.

Results

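Potassium channel genes were taken as all genes of the transcript table whose symbol begins with Kcn, apart from Kcne2, which was left out. The 81 genes found this way, of 18287 gene names in the table, held 229 of its 80137 transcripts. They were sorted by symbol into 25 voltage-gated channel genes (Kcna, Kcnb, Kcnc, Kcnd, Kcnh and Kcnq), 12 inward rectifiers (Kcnj) and 12 two-pore channels (Kcnk). A further 7 were genes of the calcium- or sodium-activated channel family (Kcnma, Kcnn, Kcnt and Kcnu), named by family and not by the gating of each member. The others were 8 silent subunits (Kcng, Kcns and Kcnv), 13 auxiliary genes (Kcnab, Kcne, Kcnip, Kcnmb and Kcnrg) and 4 antisense RNAs. RNA of the whole hippocampus was sequenced from 16 C57BL/6 mice of 3 months, with 1 library per mouse and 4 mice in each group. Homecage (HC) mice stayed in their cages with neither testing nor handling during the procedure. Control (Ctrl) mice were placed in the shuttle box without shocks on the first day and were tested with 30 escapable shock trials at 0.4 mA on the next day. Helpless (LH) and non-helpless (NLH) mice received 180 inescapable foot shocks and then the same test, and the study parted these groups by how the mice escaped in it. LH and NLH mice therefore shared the inescapable shocks, and Ctrl mice shared the test schedule with both. In the test an escape ended the shock of that trial, so mice that failed more often received more shock in it, and outcome and amount of test shock cannot be told apart in the LH comparisons. Values are FPKM, fragments scaled to the length of the transcript and to the mapped fragments of the library, so levels of different genes can be set side by side per length, and a gene sum is the total FPKM of all transcripts of that gene. All 8 hippocampal neuron markers checked averaged at least 1 FPKM. The tissue is bulk, so fewer cells of a type and less RNA per cell cannot be told apart.

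Potassium channels let potassium leave or enter the cell along its gradient and so set the resting potential, shape the action potential and limit repetitive firing. Voltage-gated channels open on depolarization, and inward rectifiers hold the resting potential and include the channels that G-protein-coupled receptors open. Two-pore channels carry leak current, and most channels of the calcium- and sodium-activated family follow the ions that enter during spiking. Silent subunits do not form working channels alone and modify Kcnb channels when they join them, while auxiliary subunits change the surface level and gating of the pore-forming subunits.

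The pore-forming genes share a short run of codons for the selectivity filter, the ring of backbone oxygens that passes potassium and holds back sodium. The windows below are shown so that the filter codons of genes on which the results turn can be set side by side. They are coding sequence of GRCm38 read from the GENCODE vM21 annotation, 5′ to 3′ on the coding strand, with the 15 bases of the filter codons in capitals.
Kcna2: tccatgacaACTGTAGGCTATGGAgacatg
Kcnb2: accatgaccACTGTGGGCTACGGTgacatt
Kcnc1: accatgacgACACTGGGCTATGGAgacatg
Kcnc2: accatgactACCTTAGGTTACGGGgatatg
Kcnc4: accatgacaACGCTTGGCTATGGGgacatg
Kcnv1: tccatgactACAGTAGGATATGGGgacatt
Kcnma1: acaatgtctACAGTGGGTTATGGGgacgtt
Kcnj9: acggagaccACCATCGGCTATGGGcaccgg
Kcnj13: acacaacttACAATTGGTTATGGTaccatg
Each window lies inside 1 coding exon. They lie at chr3:107105215-107105244 on the plus strand for Kcna2, chr1:15710037-15710066 (plus) for Kcnb2, chr7:46427964-46427993 (plus) for Kcnc1, chr10:112456220-112456249 (plus) for Kcnc2, chr3:107447793-107447822 (minus) for Kcnc4, chr15:45109283-45109312 (minus) for Kcnv1, chr14:23528407-23528436 (minus) for Kcnma1, chr1:172326178-172326207 (minus) for Kcnj9 and chr1:87389015-87389044 (minus) for Kcnj13.

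The pattern searched was ACNNTNGGNTANGGN (N for any base), in frame and on the coding strand only. It was searched in all coding sequences of the GENCODE vM21 annotation, whether or not the transcript was measured here. It was found in all 8 silent subunit genes, in 17 of 25 voltage-gated genes, in 9 of 12 inward rectifiers, in 7 of 12 two-pore genes and in 1 of 7 calcium- or sodium-activated genes, and in none of the 13 auxiliary genes. The 8 voltage-gated genes without it were the 8 Kcnh genes. Over all members with a coding sequence 42 of 77 genes (54.5%) held it, against 14 of 22406 annotated genes (0.0625%) not named Kcn. Genes without a match lack these letters only, and nothing is read from that about their pores.

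The highest level was that of a subunit that accompanies the pore. Kcnab2, which encodes a cytoplasmic beta subunit of Kcna channels, stood at 100.5 ± 15.6 FPKM (SD over 16 mice) and was above every other member in each of the 16 mice. Without ENSMUST00000161496.7, a short transcript of Kcnab2 described with the isoforms, its sum was 54.03 ± 8.07 FPKM. Kcnip2, a calcium-binding partner of Kcnd channels, followed at 28.2 ± 5.80 FPKM. Its order against Kcnj3 at 27.6 ± 3.37 FPKM, an inward rectifier opened by G proteins, was not fixed, since it was the higher of both in 9 mice only. Kcnab1, a further beta subunit, was at 20.5 ± 3.24 FPKM. Lower down the ranks of neighbours crossed between mice. In all, 13 genes averaged at least 10 FPKM and 50 at least 1 FPKM, 23 lay between 0.1 and 1 FPKM, and 8 lay under 0.1 FPKM, the lowest being Kcnq1 at 0.0209 FPKM.

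**Figure D1:**
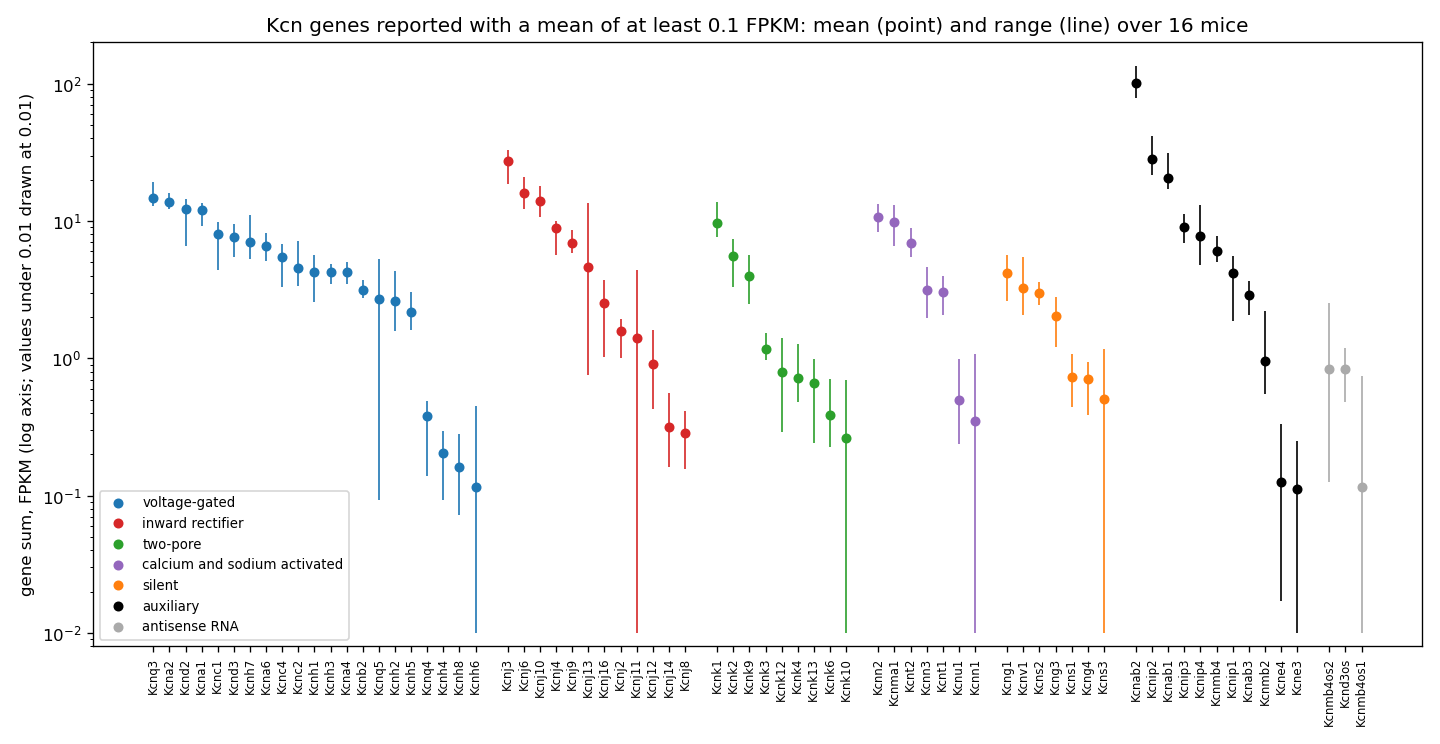
Gene sums in FPKM on a log axis for the Kcn genes reported here with a mean of at least 0.1 FPKM, sorted by role, with points for the mean and lines for the range over 16 mice. Kcnab2 at 100.5 FPKM stands above all others, and Kcnj13 and Kcnj11 have wide ranges.

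Among voltage-gated genes Kcnq3, an M channel subunit, was at 14.8 ± 1.67, Kcna2 at 13.7 ± 1.12, Kcnd2 at 12.2 ± 1.82 and Kcna1 at 12.0 ± 1.08 FPKM. M channels restrain repeated firing, and Kcnd2 carries transient A-type current in hippocampal pyramidal cells. Of the Kcnc genes, which serve fast spiking, Kcnc1 was highest at 8.03 ± 1.40 FPKM, and of the Kcnh genes Kcnh7 at 7.04 ± 1.44 FPKM. Inward rectifiers were led by Kcnj3 with its partners Kcnj6 at 16.02 ± 2.15 and Kcnj9 at 6.91 ± 0.818 FPKM. Kcnj10, the inward rectifier of astrocytes, stood at 14.1 ± 1.66 FPKM and its partner Kcnj16 at 2.51 ± 0.543 FPKM. Two-pore channels were led by Kcnk1 at 9.67 ± 1.77, Kcnk2 at 5.53 ± 1.12 and Kcnk9 at 3.96 ± 0.983 FPKM, and activated channels by Kcnn2 at 10.7 ± 1.22 and Kcnma1 at 9.82 ± 1.69 FPKM. Kcnd3, the other large source of A-type current, was at 7.70 ± 0.993 FPKM, and its partners Kcnip3 and Kcnip4 at 9.03 ± 1.13 and 7.75 ± 2.47 FPKM. Kcnj11, the pore of the ATP-sensitive channel, ranged from 5.99e-05 to 4.42 FPKM between mice, while Kcnj8, its relative in vessels, stayed between 0.156 and 0.414 FPKM. The silent subunits with the highest means were Kcng1 at 4.20 ± 0.856 and Kcnv1 at 3.25 ± 0.998 FPKM.

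Summed by role, auxiliary genes took 36.0% of the Kcn total, voltage-gated genes 32.3%, inward rectifiers 17.0%, activated channels 6.88%, two-pore channels 4.64%, silent subunits 2.89% and antisense RNAs 0.37%. Without the short Kcnab2 transcript the order of the first 2 roles turned, with auxiliary genes at 29.4% and voltage-gated genes at 35.6%. Summed voltage-gated FPKM was 154 ± 6.93 in HC mice and 163 ± 3.71 in Ctrl mice, and 165 ± 8.70 for NLH and 166 ± 23.3 for LH (SD, n = 4). Summed two-pore FPKM was 20.9 ± 0.94, 22.9 ± 1.32, 24.0 ± 1.36 and 25.3 ± 4.43 in the same order. The spread in LH mice was the widest in both sums.

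The libraries labelled LH replicates 3 and 4 stood apart, with 10846 and 15504 transcripts of the whole table at 0, against 4872 to 7352 in the other 14 mice. Of the 229 Kcn transcripts 25 and 26 were at 0 in them, against 9 to 17 elsewhere. The Kcn total was 411 FPKM in LH replicate 4 and 606 FPKM in LH replicate 2, the lowest and the highest of the 16, and made up 0.342% to 0.391% of all FPKM. Estimated depth was 20200000 to 38020000 fragments, lowest in LH replicate 4. The median SD of log2 values within a group over the 50 genes of at least 1 FPKM was 0.12 for HC and for Ctrl, 0.18 for NLH and 0.32 for LH, beside 0.15, 0.14, 0.20 and 0.36 over all 10436 such genes. The difference of a named member in LH mice is also given without these 2 libraries where its value then moved by over 1.5 times, and so are the counts of members past the limma thresholds.

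LH replicate 1 stood apart in another measure. The summed level of 4 thalamus markers was 21.2 FPKM in it, against 5.72 to 8.74 FPKM in the other 15 mice. It also held the highest values of Kcnc2, Kcnk1 and Kcnip4 among the 16 mice, and their differences are given without it as well. The part of thalamus tissue in these values was not tested.

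The summed level of 8 choroid plexus markers, 6 of them at a mean of at least 1 FPKM, ranged from 1.72 to 96.1 FPKM between mice, and Kcnj13, an inward rectifier known from choroid plexus epithelium, varied with it. Kcnj13 was at 3.92, 0.761, 5.22 and 4.60 FPKM in HC mice. It was at 3.62, 6.60, 3.76 and 3.39 FPKM for Ctrl, at 3.12, 3.99, 7.34 and 1.19 FPKM for NLH and at 9.05, 13.5, 2.37 and 0.980 for LH. The 3 mice lowest in Kcnj13, HC replicate 2, LH replicate 4 and NLH replicate 4, were also the 3 lowest in summed choroid plexus markers, at 3.67, 1.72 and 4.05 FPKM. The 4 highest in Kcnj13 were the 4 highest in the markers, from 57.2 FPKM in Ctrl replicate 2 to 96.1 FPKM in LH replicate 2. The summed markers ran from 3.67 to 38.7 FPKM for HC, 19.2 to 57.2 for Ctrl, 4.05 to 66.8 for NLH and 1.72 to 96.1 FPKM for LH, so the groups overlapped in both measures. Aqp1, Folr1 and Otx2 were at 0 in LH replicate 4, and Ttr, the most abundant marker of the list, was at most 0.000108 FPKM in the 3 lowest mice. The part of choroid plexus tissue in the other Kcn levels was not tested.

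**Figure D2:**
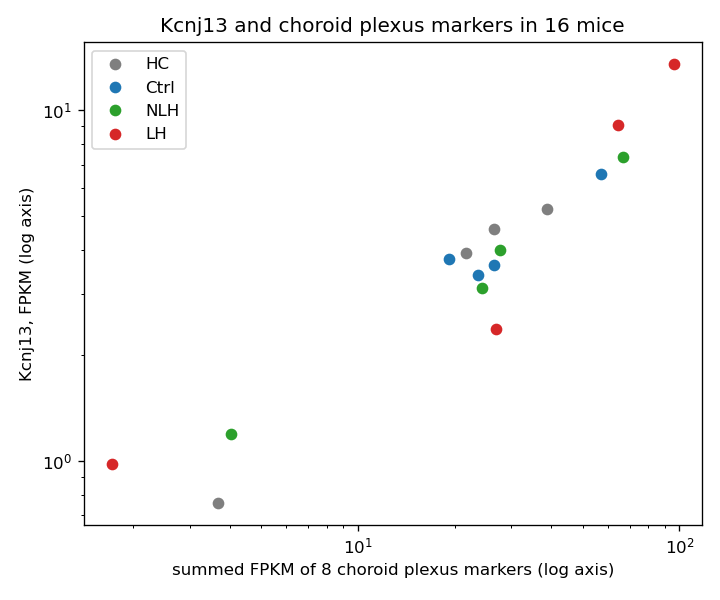
Kcnj13 in FPKM against the summed FPKM of 8 choroid plexus markers, both on log axes, 1 point per mouse, coloured by group. LH replicate 2 lies at 13.5 FPKM of Kcnj13 and 96.1 FPKM of markers, and LH replicate 4 at 0.980 and 1.72 FPKM.

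Whether handling, the stay in the box and the test went with other channel levels was asked by Ctrl vs. HC, in which these cannot be told apart. No member passed an adjusted p of 0.05 in limma, as for all 18287 genes (0%). At an unadjusted p under 0.05 there was 1 of 81 member genes, Kcnn1, against 2.7% of all genes. Kcnn1, a small-conductance calcium-activated channel, was at 1.07, 0.802, 0.384 and 0.777 FPKM in HC and at 0.0134, 0.428, 0.0262 and 0.158 FPKM in Ctrl mice, so 1 Ctrl mouse overlapped the HC range. The difference was -1.96 (SE 0.73) on the log2(FPKM + 0.1) scale, on which all gene differences are given, with an adjusted p of 1 in limma. With unnamed assembled transcripts of the same locus added to the sum, it was 0.42, in the other direction. Kcnn1 averaged 0.35 FPKM, and it was picked out because of this p. The study's test on gene sums called 11 of 81, against 8.39% of all genes.

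Among genes of at least 1 FPKM, the smallest p in Ctrl vs. HC belonged to Kcnc4, Kcnd2, Kcnv1, Kcnk9, Kcna4 and Kcnip4, all with an adjusted p of 1 in limma. Kcnc4, a fast inactivating member of the Kcnc family, was at 5.46, 4.90, 4.79 and 5.26 FPKM in HC and at 6.54, 6.78, 5.97 and 6.26 FPKM in Ctrl mice without overlap, a difference of 0.32 (SE 0.17). Kcnip4 was at 6.26, 5.33, 4.79 and 5.85 FPKM in HC and at 7.37, 6.85, 6.88 and 6.59 FPKM in Ctrl mice, also without overlap, a difference of 0.32 (SE 0.20). With the unnamed transcripts of its locus added, the Kcnip4 difference was -0.05. Of the Kcnip4 sum, 2 processed transcripts, not annotated as protein coding, held 88.8%, 5.77%, 67.5% and 59.8% in HC mice. In Ctrl mice they held 82.0%, 85.4%, 81.4% and 80.9%, so the sum is not the level of the coding transcripts. Kcna4, a subunit of A-type channels, was the only one of the 6 with a lower mean in Ctrl mice. It was at 4.85, 4.49, 4.06 and 4.85 FPKM in HC and at 5.00, 3.47, 3.73 and 3.50 FPKM in Ctrl mice, so Ctrl replicate 1 was above all HC mice, and the difference was -0.23 (SE 0.14). Without Ctrl replicate 1 it was -0.34, with an adjusted p of 1 in limma. Groups did not overlap in 6 of 81 members, against 5.24% of all genes.

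NLH vs. Ctrl compared mice that still escaped after inescapable shocks with mice that had the test shocks only. No member passed the adjusted threshold in limma, against 0.00547% of all genes, and 5 of 81 were under an unadjusted p of 0.05, against 5.59% of all genes. Kcnab3, a beta subunit of Kcna channels, was at 2.77, 2.65, 2.05 and 2.29 FPKM in Ctrl and at 3.43, 2.98, 3.44 and 3.67 FPKM in NLH mice, without overlap, and differed by 0.46 (SE 0.14, adjusted p = 0.57 in limma). Kcnab3 lies in an assembled locus with Trappc1, so reads of both may be shared. Of the Kcnab3 sum, 2 retained-intron transcripts, not annotated as protein coding, held 41.6%, 54.3%, 86.4% and 60.4% in Ctrl mice. In NLH mice they held 75.5%, 43.3%, 62.6% and 74.7%, so the separated sum is not the level of the coding transcript. Kcnk9, an acid-sensitive leak channel, was at 4.68, 5.62, 4.68 and 4.80 FPKM in Ctrl and at 2.62, 3.42, 2.63 and 4.54 FPKM in NLH mice, all of them lower, a difference of -0.60 (SE 0.22, adjusted p = 0.712 in limma).

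Kcnh2, a channel of slow repolarizing current, was likewise lower in every NLH mouse. It stood at 3.19, 2.57, 2.55 and 3.40 FPKM in Ctrl and at 1.58, 2.18, 2.02 and 1.61 FPKM in NLH mice, a difference of -0.64 (SE 0.24, adjusted p = 0.734 in limma). The separation lay in its 3 processed transcripts, whose sum was 1.74, 0.734, 0.953 and 1.89 FPKM in Ctrl and 0.000234, 0.571, 0.364 and 0.132 FPKM in NLH mice. The sum of its protein-coding transcripts was 1.45, 1.83, 1.60 and 1.51 FPKM in Ctrl and 1.58, 1.60, 1.66 and 1.48 FPKM in NLH mice, and these overlapped. Kcnc2, Kcnk2 and Kcnk1 completed the 6 smallest p, with differences of 0.35 (SE 0.16), 0.34 (SE 0.20) and 0.21 (SE 0.12). With unnamed transcripts of its locus added, the Kcnc2 difference was 0.20. Kcnk1 was at 10.5, 9.74, 12.7 and 8.99 FPKM in NLH mice, and without NLH replicate 3, the highest, its difference was 0.11 with an adjusted p of 1 in limma. The remaining members under an unadjusted p of 0.05 were Kcns3 and Kcnmb2, which average under 1 FPKM. The study's test called 8 of 81, against 9.44% of all genes. Groups did not overlap in 5 of 81 members, against 6.04% of all genes.

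The comparison of LH with Ctrl mice asks for levels that go with helplessness against no inescapable shock. No member passed the adjusted threshold in limma, and none of all genes did (0%). Under an unadjusted p of 0.05 were 9 of 81 members, against 11.5% of all genes. Of these, 7 were higher in LH mice (7.03% of all genes) and 2 lower (4.49%), and the study's test called 7 of 81 (7.87% of all genes). Kcnv1, a silent subunit, was at 2.85, 3.01, 3.31 and 3.16 FPKM in Ctrl and at 5.20, 3.98, 4.17 and 5.46 FPKM in LH mice, and each LH mouse was above all 12 others. The difference was 0.58 (SE 0.16, adjusted p = 0.168 in limma), and it was 0.55 with an adjusted p of 0.0846 without LH replicates 3 and 4. Over 16 alternatives that adjusted p ranged from 0.0681 to 0.441.

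Kcnc2 and Kcnc4, both of the Kcnc family, differed in opposite directions. Kcnc2 was at 3.34, 4.41, 3.45 and 3.85 FPKM in Ctrl and at 7.18, 4.90, 4.46 and 4.60 FPKM in LH mice, without overlap, a difference of 0.46 (SE 0.16, adjusted p = 0.295 in limma). Without LH replicate 1, the mouse high in thalamus markers, it was 0.31 with an adjusted p of 0.425, and with unnamed transcripts of its locus added it was 0.27 with an adjusted p of 0.361. Kcnc4 was at 6.54, 6.78, 5.97 and 6.26 FPKM in Ctrl and at 5.69, 6.04, 3.70 and 3.30 FPKM in LH mice, a difference of -0.49 (SE 0.17, adjusted p = 0.29 in limma). The 2 low Kcnc4 values came from LH replicates 3 and 4, and without them the difference was -0.12 with an adjusted p of 0.601. With median-ratio size factors in place of the deposited scale, Kcnc2 and Kcnc4 passed in LH vs. Ctrl, at adjusted p of 0.0493 and 0.0474 in limma, while 2.8% of all genes passed. Over 16 alternatives the adjusted p ran from 0.0493 to 0.605 for Kcnc2 and from 0.0474 to 0.628 for Kcnc4.

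Kcnh5, a voltage-gated channel of the ether-a-go-go group, was at 1.88, 1.96, 2.07 and 1.99 FPKM in Ctrl and at 2.39, 2.30, 3.03 and 2.92 FPKM in LH mice, without overlap, a difference of 0.40 (SE 0.15, adjusted p = 0.305 in limma). The 2 highest of these came from LH replicates 3 and 4, and without them the difference was 0.24 with an adjusted p of 0.371. Kcnk1, a weakly conducting leak channel, was at 9.39, 9.04, 8.86 and 8.70 FPKM in Ctrl and at 13.8, 10.9, 11.5 and 9.14 FPKM in LH mice, where 1 mouse lay inside the Ctrl range (difference 0.31, SE 0.12, adjusted p = 0.339 in limma). Kcnip4 was at 13.1, 8.24, 12.5 and 6.84 FPKM in LH mice and overlapped Ctrl in 1 mouse, with a difference of 0.50 (SE 0.20, adjusted p = 0.343 in limma). Without LH replicate 1 the differences of Kcnk1 and Kcnip4 were 0.21 and 0.36, both with an adjusted p of 0.471 in limma. With unnamed transcripts of its locus added, the Kcnip4 difference was 0.15 with an adjusted p of 0.663. Its processed transcripts held 92.9%, 65.6%, 78.8% and 91.4% of the Kcnip4 sum in LH mice. Groups did not overlap in 6 of 81 members, against 5.59% of all genes. The lowest fitted difference among genes of at least 1 FPKM was that of Kcnq5, a further M channel subunit, at -1.32 (SE 0.78, adjusted p = 0.557 in limma). Kcnq5 was at 0.691, 3.73, 3.93 and 3.21 FPKM in Ctrl and at 0.0922, 2.52, 1.27 and 1.42 FPKM in LH mice, so the groups overlapped. Without LH replicate 1 the difference was -0.52 with an adjusted p of 0.774.

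Without LH replicates 3 and 4, 4 of 81 members passed the adjusted threshold in limma in LH vs. Ctrl, while 5.41% of all genes did. These were Kcna6, Kcnab1, Kcnj10 and Kcnj12, each higher in LH mice by 0.38, 0.49, 0.33 and 0.76, with adjusted p of 0.0413, 0.0383, 0.0342 and 0.0315 in limma. In the 2 LH mice kept, Kcnj10 was at 18.1 and 16.6 FPKM, against 12.98, 13.4, 14.8 and 13.8 FPKM in Ctrl mice, and in those left out it was at 14.4 and 10.7 FPKM. The summed level of 8 astrocyte markers, each of them above 0 in every mouse, moved with it, at 522 and 565 FPKM in the LH mice kept, 426 and 365 FPKM in those left out and 429 to 498 FPKM in Ctrl mice. It ran from 415 to 447 FPKM for HC and from 421 to 533 FPKM for NLH, and its part in the Kcnj10 difference was not tested. Kcnab1 was at 23.1 and 31.2 FPKM in the LH mice kept, against 17.3 to 21.1 FPKM in Ctrl mice, and at 19.9 FPKM in both left out. Kcnj12, an inward rectifier, was at 1.60 and 1.28 FPKM in the LH mice kept, at 0.429 and 0.743 FPKM in those left out and at 0.675 to 0.988 FPKM in Ctrl mice. Kcna6, a delayed rectifier subunit, was at 7.87 and 8.24 FPKM in the LH mice kept, at 6.91 and 5.11 FPKM in those left out and at 5.52 to 6.78 FPKM in Ctrl mice. Its 2 transcripts here are annotated as nonsense-mediated decay and processed transcript, so 100% of this sum is not annotated as protein coding. These 4 calls rest on LH replicates 1 and 2 alone. LH replicate 1, the mouse high in thalamus markers, held the highest Kcnj10 and Kcnj12 of the 16 mice, while the lowest Kcnj12 was in LH replicate 3 and the lowest Kcna6 and Kcnj10 in LH replicate 4. Under an unadjusted p of 0.05 were then 19 of 81 members, against 24.3% of all genes.

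LH vs. NLH compared mice with the same inescapable shocks and a different outcome in the test, where LH mice also received more shock. No member passed the adjusted threshold in limma, against 0.0109% of all genes, and 5 of 81 were under an unadjusted p of 0.05, against 7.54% of all genes. The study's test called 4 of 81, against 3.43%. Kcnv1 had the smallest p of all members, with NLH mice at 3.06, 2.32, 3.08 and 2.08 FPKM, all below the 4 LH mice. It differed by 0.82 (SE 0.16, adjusted p = 0.164 in limma), and by 0.79 with an adjusted p of 0.145 without LH replicates 3 and 4. Over 16 alternatives the adjusted p ranged from 0.0652 to 1. Both LH comparisons share the LH mice, so the Kcnv1 values of both are not separate evidence.

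Kcnh5 was at 1.88, 2.09, 2.01 and 2.46 FPKM in NLH mice, overlapped the LH range and differed by 0.32 (SE 0.15, adjusted p = 0.662 in limma). Without LH replicates 3 and 4 it was 0.15 with an adjusted p of 0.667. Kcnc1, Kcnn2 and Kcnc4 differed in LH mice by -0.38 (SE 0.19), -0.22 (SE 0.11) and -0.34 (SE 0.17), each with an adjusted p of 0.68 in limma. Without LH replicates 3 and 4 these differences were -0.13, -0.08 and 0.03, and with size factors those of Kcnn2 and Kcnc4 were -0.10 and -0.22. Kcnmb2, a beta subunit that inactivates Kcnma1 channels and that averaged 0.953 FPKM over all mice, was at 2.22, 1.81, 1.10 and 1.28 FPKM in NLH and at 0.915, 0.860, 0.684 and 0.558 FPKM in LH mice, without overlap (difference -0.97, SE 0.26, adjusted p = 0.368 in limma). Kcnmb2 was singled out on these values. Without ENSMUST00000194796.1, a 338-base isoform, its sum was 0.608, 0.677, 0.892 and 0.681 FPKM in NLH mice, inside the LH range, so the separation of the gene sum rested on this isoform. Without LH replicates 3 and 4, 19 of 81 members were under an unadjusted p of 0.05 and none passed the adjusted threshold in limma, against 15.3% and 0.0383% of all genes. With all mice, groups did not overlap in 2 of 81 members, against 2.11% of all genes.

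**Figure D3:**
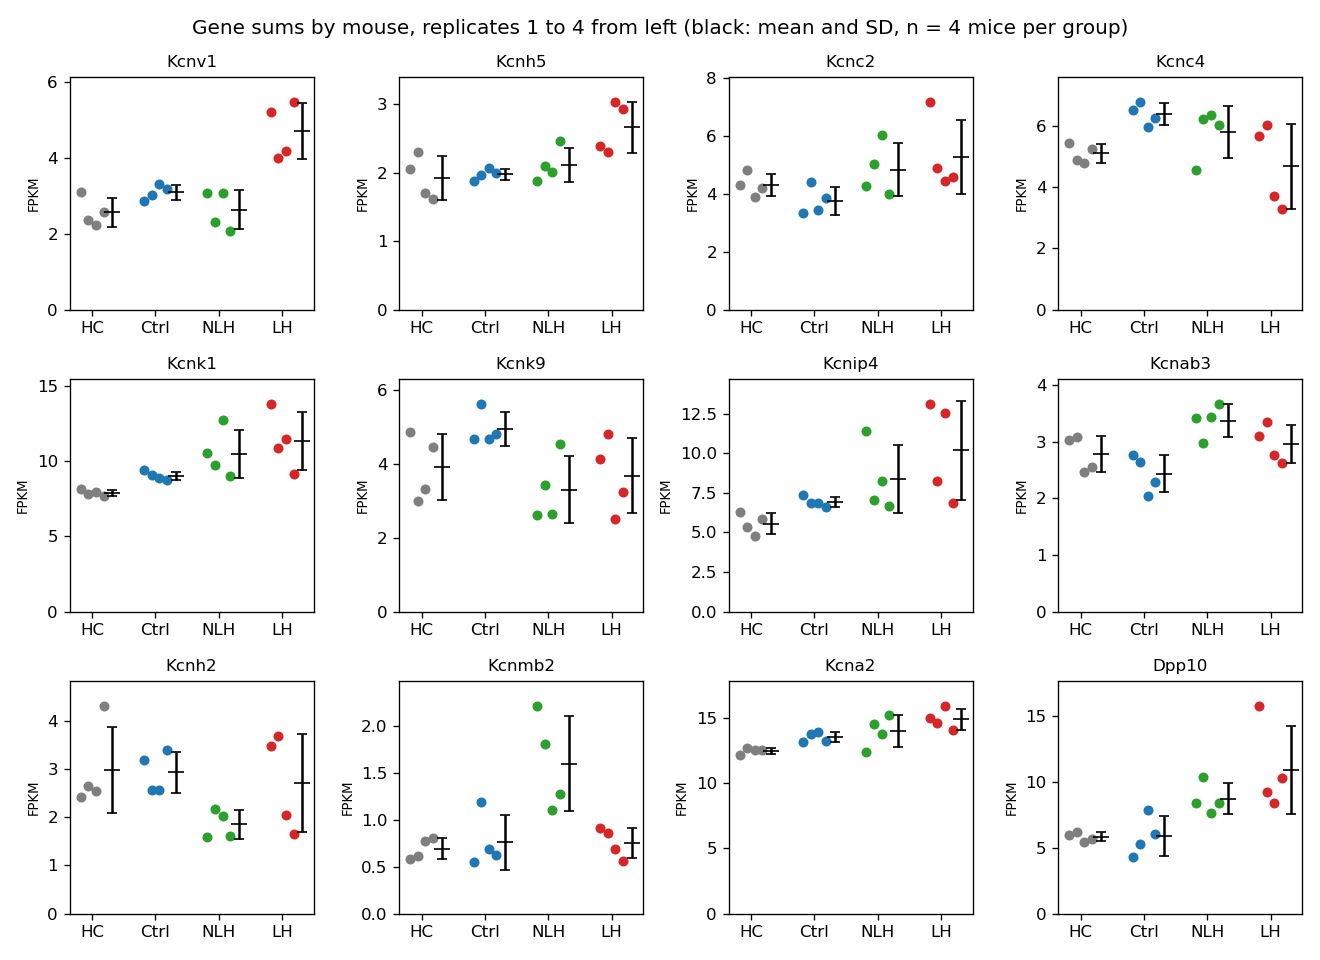
FPKM by mouse in the 4 groups for 11 Kcn genes and Dpp10, with replicates 1 to 4 from left in each group and the mean and SD of 4 mice in black. The 4 LH mice of Kcnv1 lie between 3.98 and 5.46 FPKM, above the other 12, and the low Kcnc4 points in LH are 3.70 and 3.30 FPKM.

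Across the 50 genes of at least 1 FPKM, the median difference was 0.07 in Ctrl vs. HC, 0.05 in NLH vs. Ctrl, 0.01 in each of the LH comparisons. Over all genes of at least 1 FPKM the medians were 0.03, 0.08, 0.03 and -0.05. Positive differences were 35, 31, 27 and 28 of the 50, beside 59.3%, 66.8%, 54.1% and 39.4% of all such genes. With size factors the counts were 33, 28, 34 and 37 of 50, beside 54.1%, 58.1%, 65.6% and 63.8%, so the split in the LH comparisons moves with the scale. Size factors moved the median over all such genes by 0.12 in LH vs. NLH, from -0.05 to 0.07, and by 0.07 in LH vs. Ctrl, to 0.10. The median of the 50 moved with them, to 0.12 and 0.08. For Ctrl vs. HC and NLH vs. Ctrl the medians of the 50 were then 0.05 and 0.01, beside 0.01 and 0.03 over all such genes. The median SE of a difference was 0.16.

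**Figure D4:**
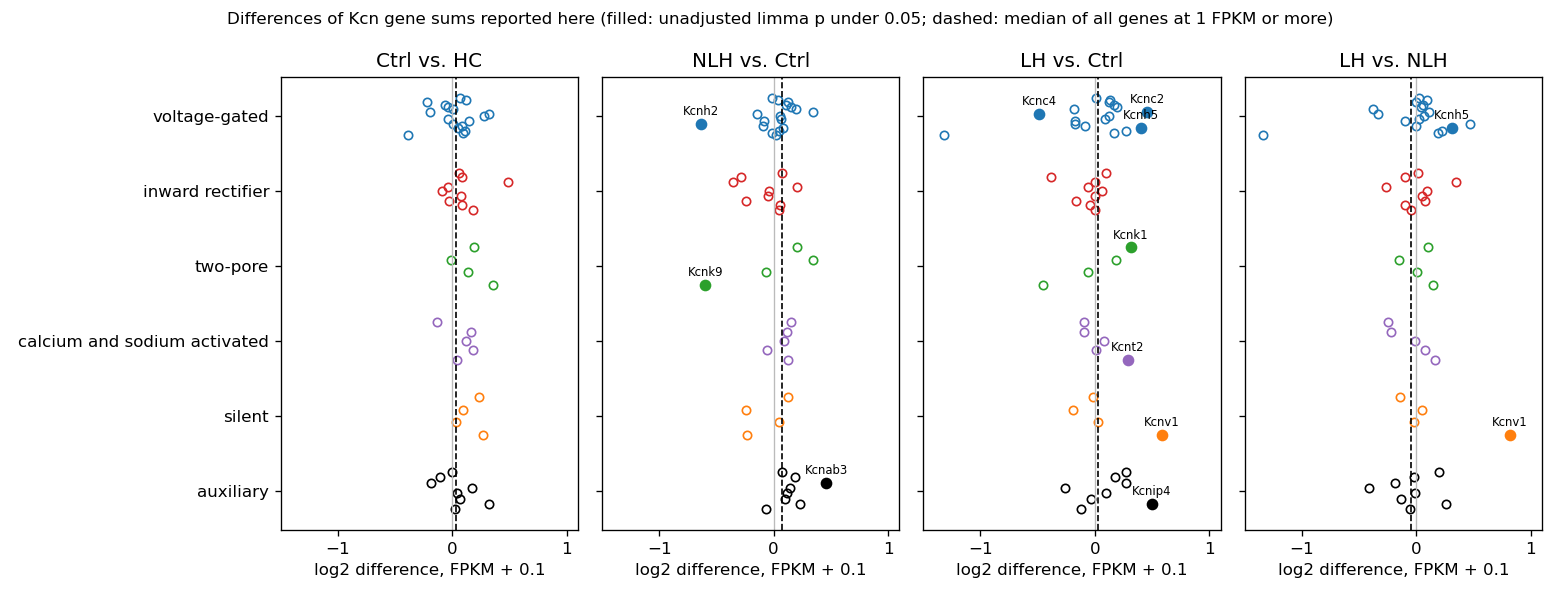
Log2 differences of the Kcn gene sums reported here of at least 1 FPKM in the 4 comparisons, by role, on the log2(FPKM + 0.1) scale. Filled points had an unadjusted limma p under 0.05 and carry names, and the dashed line is the median of all genes of at least 1 FPKM, which lay between -0.05 and 0.08. Kcnv1 lies at 0.58 against Ctrl and at 0.82 against NLH mice.

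Other genes of the channel machinery, a list of 25 partners and relatives of which 20 averaged at least 1 FPKM, had no member past the adjusted threshold in limma in any of the 4 comparisons. At an unadjusted p under 0.05 there were 0 of 25 in Ctrl vs. HC (2.7% of all genes) and 2 higher in NLH vs. Ctrl (4.43%). Against Ctrl, 4 of 25 were higher (7.03%) and 2 lower (4.49%) in LH mice, and against NLH 1 was higher (2.75%) and 2 were lower (4.79%). Dpp10, a partner of Kcnd channels, was at 4.28, 5.32, 7.89 and 6.05 FPKM in Ctrl, at 8.42, 10.4, 7.67 and 8.43 FPKM in NLH and at 15.8, 9.19, 8.38 and 10.3 FPKM in LH mice. All 4 LH mice were above the Ctrl range, by 0.87 (SE 0.19, adjusted p = 0.131 in limma), and 3 of 4 NLH mice were, with a difference of 0.59 (SE 0.19, adjusted p = 0.608 in limma). The highest Dpp10 value of all mice was that of LH replicate 1, without which the difference from Ctrl was 0.68 with an adjusted p of 0.16. It passed in limma without LH replicates 3 and 4, at 1.05 (adjusted p = 0.0245), as 5.41% of all genes did, and with size factors, at 0.94 (adjusted p = 0.0233), as 2.8% did. Its relative Dpp6 was at 35.2 ± 2.85 FPKM over all mice and differed by -0.01 (SE 0.10) in LH vs. Ctrl. Hcn2, a channel of the hyperpolarization-activated current, at 11.8 ± 1.29 FPKM and Amigo1, a partner of Kcnb channels, at 7.61 ± 0.687 FPKM differed by -0.04 (SE 0.12) and 0.01 (SE 0.12) there.

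Isoforms were compared by their share of the FPKM of their gene. Of the 81 genes 54 had several transcripts, 202 in all, and the leading isoform held at least 50% on average in 48 and at least 90% in 10 of them. In 9 genes the leading isoform was not annotated as protein coding. Processed transcripts held 14.9% ± 2.39 of Kcn FPKM (SD, 16 mice), from 11.2% to 19.4%, beside 5.03% ± 0.23 of all annotated transcripts, and retained introns held 3.42% ± 0.48 beside 7.92% ± 0.71. Most of the processed transcript FPKM was 1 isoform of Kcnab2, ENSMUST00000161496.7, with 8 exons in 347 bases and 46.5 ± 17.4 FPKM, 45.2% of the gene. FPKM divides by length, so a transcript this short reaches a high value with few fragments.

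By limma on log2 ratios of an isoform to the rest of its gene, no member isoform passed the adjusted threshold in any comparison, while 0.00369%, 0.0111%, 0.0351% and 0.0461% of all isoforms did. Unadjusted p under 0.05 were found for 8 of 202 isoforms in Ctrl vs. HC (3.33% of all), 22 in NLH vs. Ctrl (4.89%), 11 in LH vs. Ctrl (10.5%) and, comparing LH to NLH, 18 (9.36%). Without LH replicates 3 and 4 these counts were 16 against Ctrl (8.81% of all) and 14 against NLH mice (7.87%), and none of them passed the adjusted threshold, as 0.00923% and 0.0406% of all isoforms did. In NLH vs. Ctrl the 22 were 10.9% of the members. The Kcnab2 isoform named above took 22.7%, 40.2%, 30.3% and 36.2% of its gene in Ctrl mice. In LH mice it took 55.9%, 47.9%, 46.8% and 54.9%, all above Ctrl, a log2 ratio difference of 1.17 (SE 0.43, adjusted p = 0.375 in limma). NLH mice, at 55.5%, 47.5%, 62.5% and 31.6%, overlapped Ctrl in 1 mouse and differed from it by 1.04 (SE 0.43, adjusted p = 0.977 in limma). HC mice were at 50.3%, 59.9%, 44.0% and 36.4%, from which Ctrl differed by -0.95 (SE 0.43, adjusted p = 1 in limma). Ctrl thus had the lowest mean share of the 4 groups, and LH differed from NLH mice by 0.13 (SE 0.43, adjusted p = 0.947 in limma). The first 3 of these differences share the Ctrl mice.

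Kcnb2, whose channels silent subunits such as Kcnv1 can join, has 2 isoforms here. The 14845-base isoform ENSMUST00000170146.2 held 65.1%, 63.2%, 59.1% and 61.3% in Ctrl and 74.1%, 68.7%, 76.8% and 77.5% in LH mice, without overlap, a log2 ratio difference of 0.77 (SE 0.29, adjusted p = 0.381 in limma). Kcnj9 has more than 1 coding isoform. One of them, ENSMUST00000062387.7, was at 71.6%, 72.9%, 74.0% and 73.5% in Ctrl, the lowest 4 of the 16 mice. It was at 82.0%, 86.6%, 88.0% and 77.9% in NLH and at 84.3%, 79.2%, 85.7% and 80.0% in LH mice. These differed by 0.91 (SE 0.30, adjusted p = 0.757 in limma) in NLH vs. Ctrl and by 0.76 (SE 0.30, adjusted p = 0.395 in limma) in LH vs. Ctrl. Both comparisons share the Ctrl mice.

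Kcna2, a delayed rectifier subunit of axons, showed an isoform that was higher in all mice given inescapable shocks, but not in Ctrl mice, which had test shocks only. ENSMUST00000038695.5, of 11582 bases, was at 10.2, 10.9, 9.93 and 10.4 FPKM in HC mice, at 10.5, 9.68, 10.8 and 10.5 FPKM for Ctrl, at 12.1, 11.9, 12.7 and 12.3 FPKM for NLH and at 13.8, 12.4, 14.0 and 12.3 FPKM for LH. On the deposited scale all 8 mice given inescapable shocks were above the 8 others. Size factors ran from 0.847 to 1.27 in these 8 mice and from 1.10 to 1.16 in the others, and the split was not checked with them. How many transcripts of the whole table split this way was not counted. As a transcript level the difference was 0.24 (SE 0.08, adjusted p = 0.652 in limma) in NLH vs. Ctrl and 0.33 (SE 0.08, adjusted p = 0.137 in limma) in LH vs. Ctrl. Its share was higher in NLH mice than in Ctrl mice by a log2 ratio of 1.47 (SE 0.54, adjusted p = 0.891 in limma), and by 0.84 with an adjusted p of 1 without NLH replicate 1. The shorter isoform ENSMUST00000196403.1 held 20.1%, 29.5%, 20.5% and 20.5% in Ctrl mice and 0%, 17.5%, 4.93% and 18.4% in NLH mice, the first of which is a value near 0.

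Kcnma1, the large-conductance calcium-activated channel, had an isoform of 29 exons that followed the groups in another order. ENSMUST00000179097.7 was close to 0 in all 4 HC mice and in Ctrl replicate 1, at 0.526, 0.572 and 0.611 FPKM in the other Ctrl mice, at 1.91, 1.48, 1.75 and 1.98 FPKM in NLH mice and at 0.0175, 0.644, 0.949 and 0.892 FPKM in LH mice. Every NLH mouse was above all 12 others. The share differed by a log2 ratio of 2.25 (SE 0.78, adjusted p = 1 in limma) in Ctrl vs. HC and of 2.24 (SE 0.78, adjusted p = 0.833 in limma) in NLH vs. Ctrl. The isoform ENSMUST00000194796.1 of its beta subunit gene Kcnmb2, on which the gene sum above turned, was at 1.61, 1.13, 0.211 and 0.596 FPKM in NLH mice, at 0.392 FPKM in Ctrl replicate 2 and near or at 0 in the other 11 mice. In LH vs. NLH this share had the smallest adjusted p of any member isoform, 0.0829 in limma, at a log2 ratio of -3.10 (SE 0.57). It passed in limma with NLH replicate 3 left out (adjusted p = 0.0258) and with a pseudocount of 0.01 (adjusted p = 0.0315). It too was singled out on its values.

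The remaining isoforms with the smallest share p differed less evenly. In Kcnt2, a sodium-activated channel, ENSMUST00000120796.7 held 60.2%, 74.4%, 77.3% and 74.2% in NLH and 51.4%, 53.6%, 60.3% and 53.5% in LH mice, overlapping by 1 mouse of each group (log2 ratio -1.05, SE 0.32, adjusted p = 0.333 in limma). In Kcnc1 the 2-exon coding isoform ENSMUST00000025202.7 held 23.7%, 31.8%, 30.2% and 26.5% in NLH and 40.2%, 43.1%, 37.9% and 38.6% in LH mice, without overlap (log2 ratio 0.76, SE 0.26, adjusted p = 0.405 in limma). The Kcnh2 processed transcript ENSMUST00000142197.1, 1 of the 3 set apart above, held 49.5%, 23.4%, 31.8% and 45.1% in Ctrl and at most 18.9% in NLH mice (log2 ratio -2.43, SE 0.76, adjusted p = 0.726 in limma). In Kcnq5 the isoform ENSMUST00000173404.1 held 17.8%, 24.1%, 12.4% and 15.6% in NLH mice. It held 5.76% and 6.61% in Ctrl replicates 2 and 4, near 0% in the other Ctrl mice, and at most 0.00694% in LH and HC mice. Its share passed in LH vs. NLH in limma on the arcsine scale (adjusted p = 0.0237) but not on the log2 ratio scale (adjusted p = 0.572), and the isoform was picked out for this. Kcnq3 is nearly always 1 isoform, with a mean share of 99.1%.

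**Figure D5:**
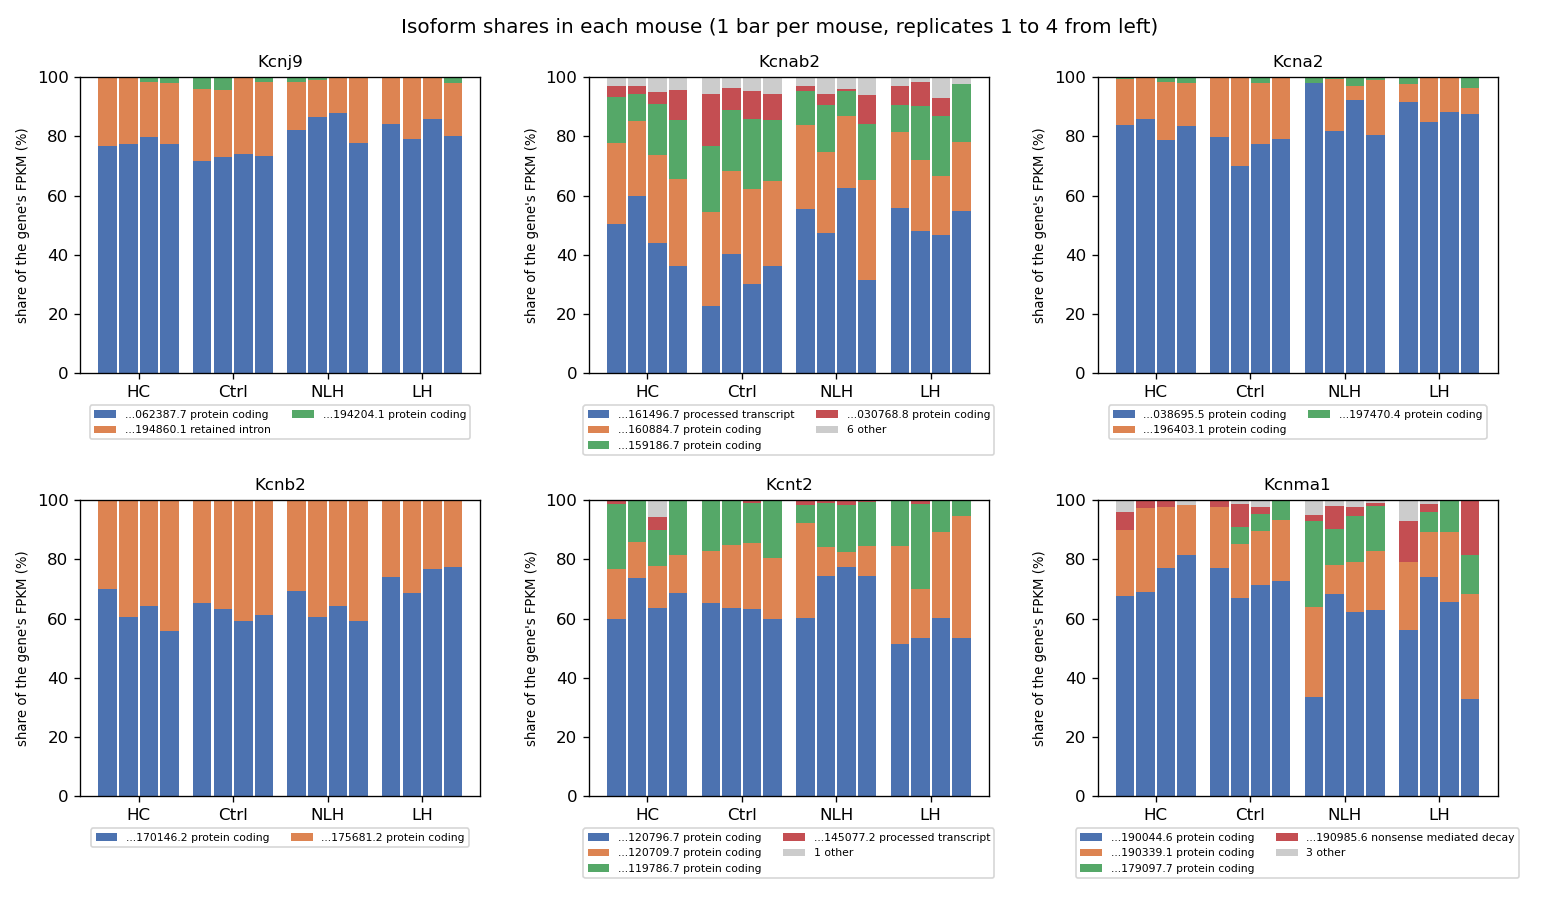
Shares in percent of each gene's FPKM for 6 Kcn genes, 1 stacked bar per mouse and replicates 1 to 4 from left, with the leading 4 isoforms in colour, labelled by the end of their identifier and their annotated type, and the others in grey. In Kcnb2 the longer isoform holds 68.7% to 77.5% in LH mice.

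By the test of the study's methods, which compares FPKM per transcript at an unadjusted p under 0.05, 23 of 224 Kcn transcripts were called in Ctrl vs. HC (6.8% of all transcripts), 21 of 224 in NLH vs. Ctrl (7.32%), 19 of 224 in LH vs. Ctrl (7.81%) and 10 of 225 in LH vs. NLH (4.54%). As shares of the members these were 10.3%, 9.38%, 8.48% and 4.44%. After Benjamini-Hochberg adjustment over all transcripts none remained in any comparison, and none passed in limma, where 0.00374%, 0.0125%, 0.0462% and 0.0412% of all transcripts did. Without LH replicates 3 and 4 the calls were 33 of 221 against Ctrl, 14.9% of the members beside 14.1% of all transcripts, and 20 of 221 against NLH mice, 9.05% beside 6.55%.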

How the data were processed

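The deposited table holds FPKM per transcript for 16 libraries, which the authors obtained from mm10 alignments by assembling and merging transcripts with StringTie and quantifying them with Cufflinks. The methods name HISAT2 as the aligner and the submitters' processing notes name STAR 2.42a and StringTie 1.2.3. Whether the libraries kept strand is not given in the sources used here, so the 4 antisense RNAs and their partners cannot be told apart with certainty. The FPKM values were not rescaled between mice, and read counts were not used here. Nothing in the labels says that mice of a group shared litters, so each mouse was 1 replicate, and p-values measure the spread between these mice.

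FPKM were summed per gene name, over named transcripts only. Differences were fitted on log2(FPKM + 0.1) with limma 3.58.1 in R 4.3.3 (trend and robust options, all 16 mice, no covariate), without a filter, and adjusted by Benjamini-Hochberg over all 18287 genes. Shares were fitted as log2 ratios of an isoform to the rest of its gene, with 0.1 added to both, over 54197 isoforms. The study's own test per transcript was run on FPKM with equal variances, two-sided, leaving out transcripts under 1e-09 FPKM in all mice compared. With 4 against 4 mice the smallest exact permutation p is 0.0286. The scripts were checked on simulated data. Genes were named by the 6 smallest limma p per comparison among genes of at least 1 FPKM, and isoforms likewise at a mean share of at least 5%. Members and lists were chosen with earlier results of these data known.

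All 229 Kcn transcripts were found in GENCODE vM21 (GRCm38), which gave positions, types and coding sequence. Library depth was inferred from how FPKM steps at 1962 single-transcript loci over 2000 bases, assuming fragments of 200 bases, and its precision is limited by that assumption. Alternatives were the pseudocount, a filter at 1 FPKM, size factors, the replicate number as a block, each mouse left out, and LH replicates 3 and 4 left out. Mice of the same number did not deviate together: the correlation of their deviations was -0.02 in the median over 24 pairs, from -0.10 to 0.14. Results of some genes are not reported here.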

Additional observations from a re-analysis of the deposited data

Results flagged for a closer look

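In 136 groups of 4 mice tested, 18 had 1 mouse far from the other 3 by Dixon's criterion, which chance gives in about 1 in 20 groups, or 6.8 groups here. No explanation was tested for them. For gene sums, the mouse far from its group was LH replicate 4 for Kcnc1 (4.40 FPKM, others 7.71 to 8.36) and Kcnk2 (3.31 FPKM, others 6.39 to 6.88), LH replicate 1 for Kcnc2 (7.18 FPKM), HC replicate 2 for Kcnd2 (6.62 FPKM), HC replicate 4 for Kcnh2 (4.30 FPKM) and Ctrl replicate 2 for Kcnk9 (5.62 FPKM).

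For isoform shares, 5 flags were of Kcnq5 isoforms at 1 mouse well above a group near 0 or low. ENSMUST00000115299.7 held 17.2% in Ctrl replicate 4, 7.26% in NLH replicate 4 and 7.33% in LH replicate 4, and ENSMUST00000173058.7 held 11.2% in HC replicate 1 and 49.0% in LH replicate 2. A further Kcnq5 isoform, ENSMUST00000173404.1, was flagged at 0.00439% in HC replicate 1 and 0.00694% in LH replicate 4, shares that are near 0 in any case. The same holds for ENSMUST00000179097.7 of Kcnma1 at 0.00673% in HC replicate 2, while its 0.00535% in Ctrl replicate 1 lay below 5.54% to 6.52% in the other Ctrl mice. The leading Kcnq3 isoform was flagged at 99.99% in Ctrl replicate 1 and 99.9998% in NLH replicate 2, next to shares of practically 100%. ENSMUST00000196403.1 of Kcna2 held 29.5% in Ctrl replicate 2, beside 20.1% to 20.5% in the other 3.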

How the results depend on the processing

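The zero counts of gene sums held with each mouse left out, with other pseudocounts, with the filter, with transcripts of Ensembl identifier only and with unnamed assembled transcripts added, an alternative chosen after seeing the data. They became 2 in LH vs. Ctrl with size factors and 4 without LH replicates 3 and 4. By the test of the study's methods at an unadjusted p, gene sums gave 11, 8, 7 and 4 in Ctrl vs. HC, NLH vs. Ctrl, LH vs. Ctrl and LH vs. NLH. Isoform shares gave 1 in LH vs. NLH with a pseudocount of 0.01 and 1 on the arcsine scale, and 0 to 1 with each mouse left out, the 1 without NLH replicate 3.

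Transcript calls by the methods' test were 0 in all 4 comparisons after Benjamini-Hochberg adjustment and 0 in limma. Ctrl vs. HC gave 12 on log2 values, 14 at a mean of at least 1 FPKM, 14 by complete separation, 15 with the replicate block and 15 to 23 with each mouse left out (15 without HC replicate 3, 6.82% of members beside 5.95% of all transcripts). NLH vs. Ctrl gave 9 at 1 FPKM and 16 to 29 with each mouse left out. LH vs. Ctrl gave 11 with the study's exclusion of transcripts called in the other comparisons, 33 without LH replicates 3 and 4 (14.9% of members beside 14.1% of all), and 14 to 30 with each mouse left out (30 without LH replicate 4, 13.5% beside 10.3%). LH vs. NLH gave 5 at 1 FPKM, 6 with the exclusion, 20 without LH replicates 3 and 4 (9.05% beside 6.55%), and 6 to 15 with each mouse left out (6 without NLH replicate 3, 2.68% beside 3.41%). The replicate block changed no call of gene sums or shares at the adjusted threshold. Reversed were Kcnip4 and Kcnn1 in Ctrl vs. HC (-0.054 and 0.42 with unnamed transcripts) and Kcnc4 in LH vs. NLH (0.027 without LH replicates 3 and 4). Log2 ratios of isoforms near 0, such as those of Kcnma1, Kcnh2 and Kcnmb2, moved by over 1.5 times with the pseudocount. The causes were not tested. Depth is an estimate, and low isoforms of short length rest on few fragments.

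Counts at an unadjusted p under 0.05 in limma moved by over 1.5 times in 27 of 62 alternatives for gene sums and 9 of 58 for shares. Gene sums ran from 0 (at least 1 FPKM) to 12 (only the 2 groups compared, 14.8% of members beside 8.73% of all genes) in Ctrl vs. HC, and from 3 to 9 in NLH vs. Ctrl (9 with size factors, 11.1% beside 6.96%). They ran from 7 to 19 in LH vs. Ctrl, with 19 without LH replicate 4 alone (23.5% beside 17.0%) and 15 with size factors (18.5% beside 18.6%). In LH vs. NLH they ran from 2 to 19, with 14 with size factors (17.3% beside 12.5%), 8 without LH replicate 1 (9.88% beside 10.9%), 10 without LH replicate 2 (12.3% beside 13.2%), 9 without LH replicate 4 (11.1% beside 9.29%) and 3 without NLH replicate 3 (3.7% beside 6.28%). Leaving out NLH replicate 4 or Ctrl replicate 4 gave 8 and 3 in NLH vs. Ctrl (9.88% and 3.7% beside 7.25% and 4.63%), and Ctrl vs. HC gave 3 without HC replicate 1 or Ctrl replicate 2 and 2 without HC replicate 2 or 4. Shares ran from 4 (without HC replicate 2, 1.98% beside 2.96%, and 5 without Ctrl replicate 1) to 13, from 14 (without NLH replicate 1, 6.93% beside 4.78%) to 25, from 7 (without Ctrl replicate 4, 3.47% beside 8.54%) to 22 (without LH replicate 2, 10.9% beside 13.7%) and from 9 to 28 (without LH replicate 2, 13.9% beside 12.1%) in the same order of comparisons.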
